A study of Mus musculus with 6 samples.

Results

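The genes described here activate, remodel, desaturate and elongate the fatty acids of membrane phospholipids. They were chosen by name: the long-chain acyl-CoA synthetases Acsl1, Acsl3, Acsl4 and Acsl5, the acyltransferase Lpcat3, the desaturases Fads1, Fads2, Scd1 and Scd2, and the elongase Elovl5. A probe set counted for a gene where the array annotation gave it that single symbol. By this rule 9 of the 10 genes were measured, with 20 of the 45037 probe sets tested, among 18193 genes in all. Acsl1 had no such probe set and was not analysed here.

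RNA was hybridised to 6 single-colour arrays. In the knockout group (3 arrays) Gpx4 had been deleted with K14-cre, a recombinase driven by the promoter of a basal-layer keratin gene, and the controls (3 arrays) came from the same litters, A, B and C. The labels give no further allele for the controls. Each array held pooled cells of 1 genotype and 1 litter. Both groups were primary keratinocytes (epithelial cells that form the epidermis) grown in culture from newborn C57BL6/FVB mice in media with 100 nM sodium selenite, and no other treatment is given. Keratinocytes in culture lack the layered structure of skin. Levels are intensities made comparable between arrays by quantile normalization. Changes are differences of log2(intensity + 16), knockout minus control, and the added 16 makes the change of a dim gene look smaller; folds are on the same scale. Errors of levels are SDs over 3 arrays, errors of log2 changes are limma standard errors, and precision is limited by having 3 arrays a group.

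Acyl-CoA synthetases of the Acsl family couple free fatty acids to coenzyme A, the step that lets a fatty acid enter a phospholipid. Acsl4 prefers arachidonic and adrenic acid, and Lpcat3 inserts such polyunsaturated chains into lysophospholipids. Fads2 and Fads1 place further double bonds in essential fatty acids and Elovl5 lengthens them in between, while Scd1 and Scd2 make monounsaturated fatty acids from saturated ones. Polyunsaturated chains are the lipids most readily peroxidised, and GPX4 reduces the resulting lipid hydroperoxides. The genes that make or insert polyunsaturated chains thus act on the supply of its substrates, while Scd1 and Scd2 do not make such chains. In skin, Scd1 is best known from the sebaceous gland and Fads2 is needed to make arachidonic acid from linoleic acid.

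The desaturases Scd1, Fads2 and Scd2 had lower intensities in the knockout pools of all 3 litters, by 2.26-fold, 1.91-fold and 1.35-fold on average. The synthetases Acsl3, Acsl4 and Acsl5, the acyltransferase Lpcat3, the desaturase Fads1 and the elongase Elovl5 had overlapping ranges in the groups. On its brighter probe set Elovl5 was also lower in the knockout of each litter. In limma's test with litter as a block, adjusted over all 45037 probe sets by the Benjamini-Hochberg method at a threshold of 0.05, 0 of the 9 genes passed. Of all genes, 0.401% passed as lower and 0.214% as higher in the knockout. At an unadjusted p under 0.05, 4 of the 9 genes (Scd1, Fads2, Scd2 and Elovl5) were lower and 0 were higher, where 9.45% of all genes were lower and 8.66% higher. The median log2 change of the 9 genes was -0.22, against 0 over all genes, and the range was -1.17 to 0.18. In 3 of the 9 genes every knockout array lay below every control array, which was so for 10.8% of all genes. From such cultures fewer cells of a type and less RNA per cell cannot be told apart.

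**Figure D1:**
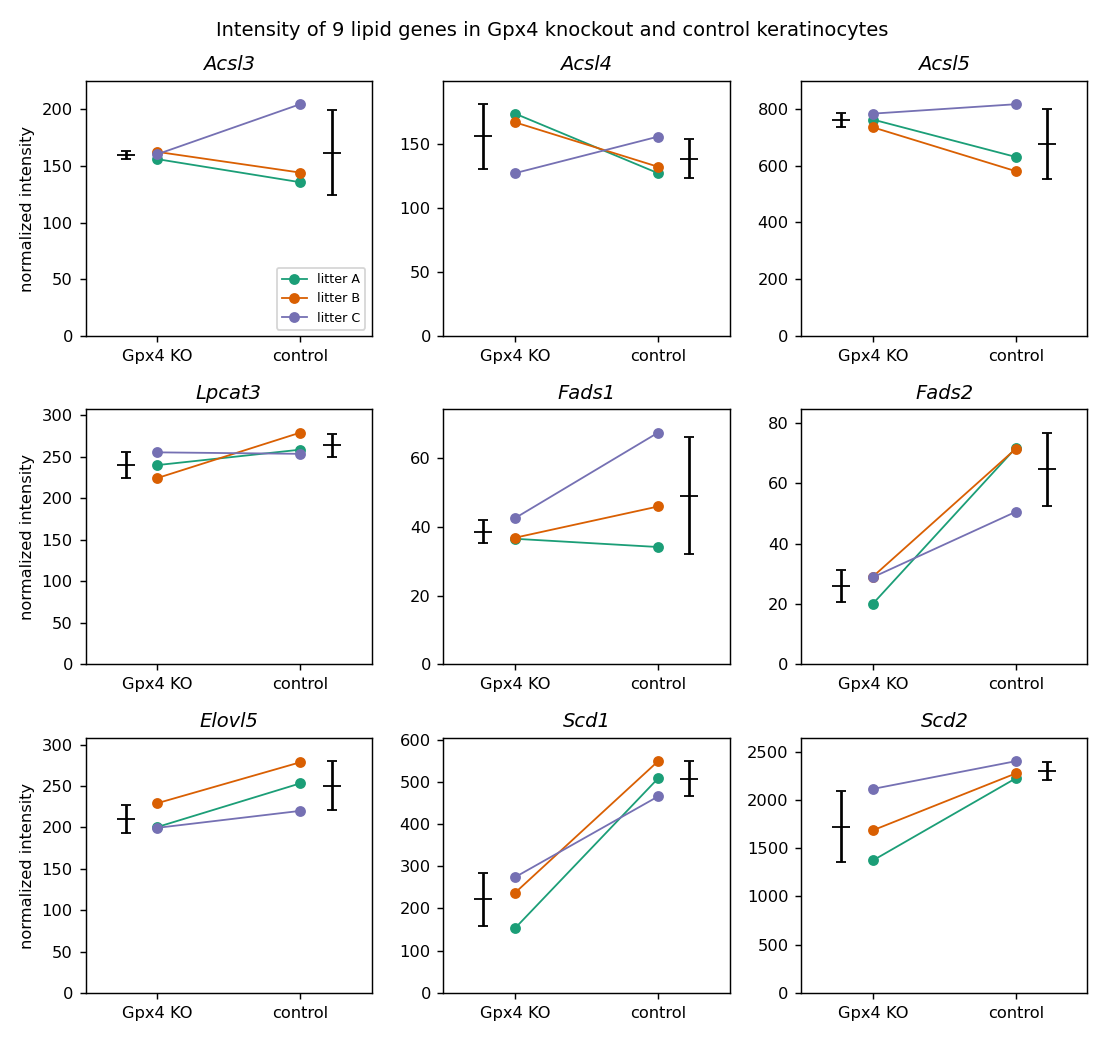
Quantile-normalized intensity (linear axes from 0) of the brightest probe set of 9 genes in Gpx4 knockout and control keratinocytes. Coloured points are arrays joined by litter, and black marks are the mean ± SD of 3 arrays. For Scd1, Fads2 and Scd2 all 3 knockout points lie below all 3 control points.

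The labels were first checked on the targeted gene. Gpx4 had intensities of 212.0, 259.7 and 216.1 in the knockout pools of litters A, B and C, against 496.9, 550.9 and 535.7 in the controls. It fell by 1.15 on the log2 scale (± 0.09, limma adjusted p = 0.0206). This call was lost on the intensities as deposited (adjusted p = 0.122), without litter A (0.162), without litter B (0.278) and when a gene's probe sets were averaged (0.0687). Of all 45037 probe sets only 3 passed without litter A and 0 without litter B.

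Scd1, the stearoyl-CoA desaturase that makes oleic and palmitoleic acid, had the largest log2 change of the 9 genes with 16 added; with 1 added Fads2 came first (-1.28, against -1.23 for Scd1). Its brighter probe set (1415964_at) read 153.0, 236.9 and 274.0 in the knockout pools of litters A, B and C, against 508.0, 548.7 and 465.3 in the controls. The groups did not overlap, and the highest knockout value was that of litter C, whose control was the lowest. The log2 change was -1.17 ± 0.17 (95% interval -1.58 to -0.77, limma adjusted p = 0.0577). Within litter A the change was -1.63, within litter B -1.16 and within litter C -0.73. The other probe set (1415965_at) averaged 84.7 ± 10.9 in knockouts and 164.2 ± 24.8 in controls, a log2 change of -0.84 ± 0.15 (adjusted p = 0.0822). Both probe sets were lower in every litter.

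Scd2, the related desaturase that is widespread outside the liver, was covered by 3 probe sets. The brightest (1415822_at) read 1371.9, 1684.0 and 2112.5 in the knockout pools of litters A, B and C, against 2223.2, 2273.8 and 2400.4 in the controls. The ranges did not overlap, but the knockout of litter C came close to the lowest control. Its log2 change was -0.43 ± 0.11 (95% interval -0.69 to -0.18, limma adjusted p = 0.149), and the other probe sets gave -0.45 ± 0.13 and -0.47 ± 0.10 (adjusted p = 0.207 and 0.11). In these the knockout and control ranges overlapped, although the knockout was lower within each litter. Scd1 and Scd2 lie near each other on chromosome 19 in the RefSeq order. Of their neighbours, Scd3 averaged 20.3 ± 1.12 in knockouts and 22.7 ± 8.42 in controls (log2 change -0.07 ± 0.18, adjusted p = 0.905), and Scd4 was not matched to a probe set.

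Fads2 is the delta-6 desaturase, the first step from linoleic to arachidonic acid. Its brightest probe set (1449325_at) read 20.1, 29.1 and 28.9 in the knockout pools of litters A, B and C, against 71.8, 71.5 and 50.6 in the controls. The groups did not overlap, and the distance was smallest in litter C. The log2 change was -0.94 ± 0.18 (95% interval -1.37 to -0.50, limma adjusted p = 0.0969), with -1.28, -0.96 and -0.57 in the litters. A second probe set (1419031_at) averaged 28.1 ± 4.51 in knockouts and 52.2 ± 8.46 in controls (-0.63 ± 0.15, adjusted p = 0.145), again with no overlap. The last (1443838_x_at) was under 16 on 5 of 6 arrays and gave -0.54 ± 0.23 (adjusted p = 0.343). All 3 probe sets were dim, so their changes depend on the value added before the logarithm: the brightest gave -1.28 with 1 and -0.51 with 64.

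Fads1, the delta-5 desaturase that completes arachidonic acid, lies next to Fads2 on chromosome 19 in the RefSeq order. Its brighter probe set read 36.6, 36.9 and 42.6 in knockouts, against 34.2, 46.0 and 67.5 in controls. The ranges overlapped, and the litter values differed in sign (0.07, -0.23 and -0.51). The log2 change was -0.22 ± 0.17 (95% interval -0.63 to 0.18, limma adjusted p = 0.603), and the other probe set, under 16 on 4 of 6 arrays, gave 0.06 ± 0.19. Fads3, a family member on the other side of Fads2, averaged 298.8 ± 124.2 in knockouts and 212.0 ± 28.8 in controls (0.38 ± 0.22, adjusted p = 0.488), with 0.65 and 0.82 in litters A and B and -0.33 in litter C. The intervals of the Fads1 and Fads2 changes overlapped, and the difference between the genes was not tested.

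Elovl5, the elongase that acts between the desaturation steps, was measured by 2 probe sets that differed. The brighter (1437211_x_at) read 200.3, 229.1 and 199.4 in knockouts, against 253.1, 278.6 and 219.9 in controls, with the knockout of litter B above the control of litter C. It was lower in the knockout of each litter (log2 change -0.24 ± 0.10, limma adjusted p = 0.333). The other (1415840_at) averaged 205.5 ± 27.3 in knockouts and 216.8 ± 3.35 in controls and changed sign between litters (-0.08 ± 0.11, adjusted p = 0.805). The suffix of the brighter one marks probes that may also match other transcripts.

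The upstream sequences of Fads2 and Elovl5 are shown because both genes are known targets of the lipid transcription factor SREBP-1. They were picked after the levels were seen, from the genes at an unadjusted p under 0.05 that have an entry. RefSeq (GRCm38.p6) promoter entries, 250 bases before to 50 after a gene's start, were matched for 6 of the 9 genes: Acsl3, Acsl4, Acsl5, Lpcat3, Fads2 and Elovl5. The Fads2 entry is chr19:10101454-10101753 on the minus strand and the Elovl5 entry chr9:77917115-77917414 on the plus strand. Capitals mark GGGCGG, the letters of a GC box, and CCAAT, the letters bound by NF-Y, on either strand.
Fads2: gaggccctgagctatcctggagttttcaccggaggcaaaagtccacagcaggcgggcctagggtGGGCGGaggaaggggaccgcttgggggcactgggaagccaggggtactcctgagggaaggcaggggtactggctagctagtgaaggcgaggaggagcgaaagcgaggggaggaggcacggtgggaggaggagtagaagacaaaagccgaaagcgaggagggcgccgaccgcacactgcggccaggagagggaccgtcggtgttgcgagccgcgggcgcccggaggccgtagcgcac
Elovl5: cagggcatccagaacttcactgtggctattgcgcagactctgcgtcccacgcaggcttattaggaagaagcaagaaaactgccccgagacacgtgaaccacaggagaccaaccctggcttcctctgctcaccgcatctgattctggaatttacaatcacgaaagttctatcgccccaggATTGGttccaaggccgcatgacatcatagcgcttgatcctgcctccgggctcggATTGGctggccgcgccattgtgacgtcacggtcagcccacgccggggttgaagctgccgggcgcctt
The Fads2 window held GGGCGG once, starting 186 bases before the start, and no CCAAT. The Elovl5 window held CCAAT on the opposite strand at 71 and 17 bases before the start, and no GGGCGG. Of 32851 promoter entries of all genes 35.7% held GGGCGG and 37.4% held CCAAT. In all 5 motifs were searched, each on both strands: these, a sterol response element (TCACNCCAC, in 1.24% of all entries), an AP-1 site (TGANTCA, 7.81%) and a direct repeat of LXR half-sites with 4 bases between them (0.0152%). The other three had no match in the windows of the 6 genes. GGGCGG was put in capitals after the Fads2 window was found to hold no other motif searched. The marked letters do not overlap each other in the windows printed.

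Acsl4 is the synthetase that commits arachidonic acid to phospholipids. Its brightest probe set (1433531_at) read 173.5, 166.7 and 127.0 in the knockout pools of litters A, B and C, against 127.0, 132.0 and 155.5 in the controls. The knockout was the higher of the pair in litters A and B and the lower in litter C. The log2 change was 0.15 ± 0.15 (95% interval -0.22 to 0.52, limma adjusted p = 0.717), and -0.05 on the intensities as deposited. The 2 dimmer probe sets gave 0.12 ± 0.17 and -0.01 ± 0.23.

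Acsl4 lies on the X chromosome, and sex-linked RNA differed between the groups. Xist, which is transcribed from the inactive X chromosome of females, averaged 1234.3 ± 23.4 in knockouts and 475.8 ± 77.1 in controls. The Y-linked Eif2s3y averaged 2.82 ± 2.00 in knockouts and 173.1 ± 15.6 in controls. Eif2s3y was at most 4.62 in a knockout pool and at least 155.5 in a control pool. The control pools also had Xist, at 388.9 to 536.1, so they held RNA of both kinds. Knockout pools had Xist with almost no Eif2s3y. The sex make-up of the pools thus went with genotype in every litter. Pool sex and genotype therefore cannot be told apart in the values given here, for any gene, and the part of pool sex was not tested.

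Acsl3, a synthetase of the endoplasmic reticulum and lipid droplets, read 156.0, 162.4 and 160.2 in knockouts on its brightest probe set, against 135.6, 144.1 and 204.4 in controls. The control of litter C stood above the other arrays. The log2 change was 0 ± 0.14 (95% interval -0.32 to 0.33, limma adjusted p = 0.994), and its sign turned to -0.20 on the intensities as deposited and -0.14 with arrays shifted to the same median. Acsl5, a synthetase of mitochondria and the endoplasmic reticulum, read 762.5, 735.2 and 783.3 in knockouts, against 630.6, 580.5 and 816.5 in controls. Its knockout values were higher in litters A and B and the groups overlapped through the control of litter C (0.18 ± 0.10, 95% interval -0.06 to 0.43, adjusted p = 0.475).

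Lpcat3, which places arachidonate in phosphatidylcholine and phosphatidylethanolamine, read 240.2, 224.5 and 255.6 in knockouts, against 258.8, 279.3 and 253.8 in controls. Knockout values were the lower in litters A and B, and the pair of litter C was nearly level. The log2 change was -0.13 ± 0.10 (95% interval -0.38 to 0.12, limma adjusted p = 0.625).

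**Figure D2:**
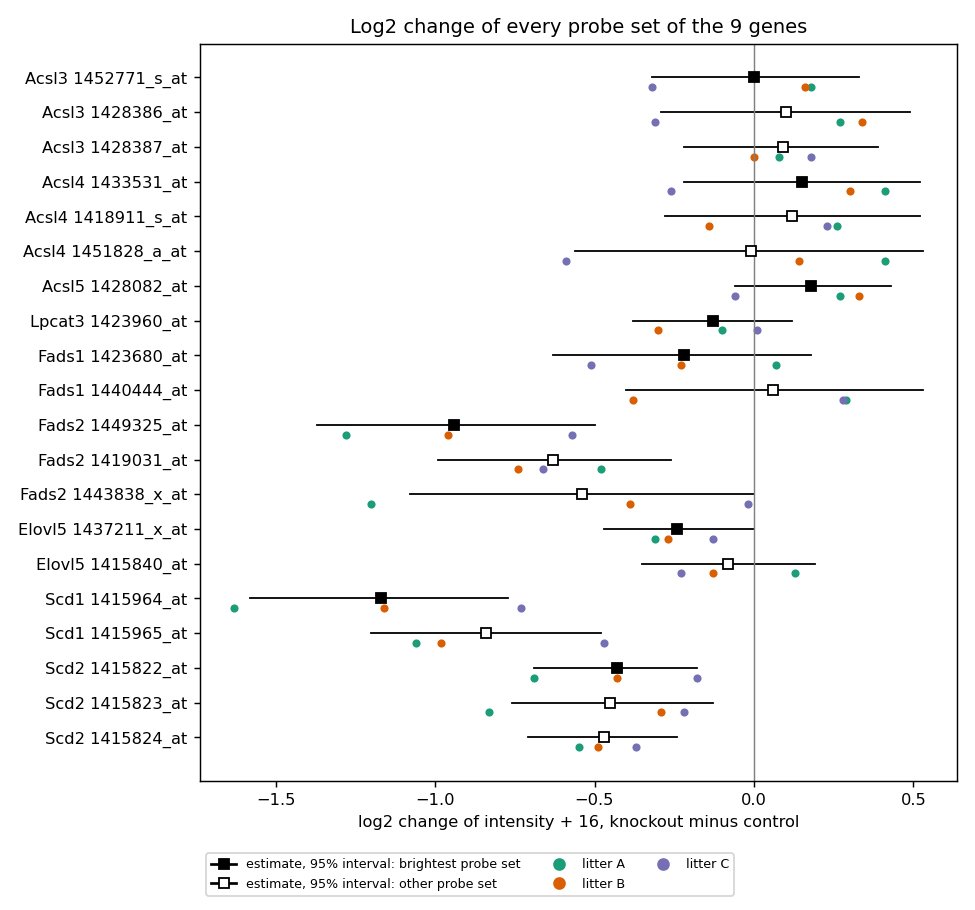
Log2 change of intensity + 16, knockout minus control, for the 20 probe sets of 9 genes. Squares with lines are limma estimates with 95% intervals (filled for the brightest probe set of a gene), and coloured points are litters. The probe sets of Scd1 and Scd2 lie left of 0 in every litter, as do those of Fads2, whose dimmest was at -0.02 in litter C, while those of Acsl3 and Acsl4 spread around 0.

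The calls for the desaturases depended on litter C, in which Scd1, Scd2 and the brightest Fads2 probe set had the smallest differences. Without litter C, Scd1 fell by 1.39 on the log2 scale (limma adjusted p = 0.00285), Fads2 by 1.09 (0.018) and Scd2 by 0.56 (0.016). The other 6 genes did not pass, and 4.34% of all genes passed as lower in that fit. Without litter A the log2 changes of Scd1, Fads2 and Scd2 were -0.95, -0.79 and -0.30 (adjusted p = 0.249, 0.44 and 0.518). Without litter B they were -1.18, -0.91 and -0.44 (0.462, 0.535 and 0.584). Of all 45037 probe sets 3 passed without litter A and 0 without litter B. With all litters, Scd1 and Fads2 passed with arrays shifted to the same median (adjusted p = 0.00218 and 0.0134, where 1.65% of all genes passed as lower) and without the 40% dimmest probe sets (0.0146 and 0.0269, 2.95%). With arrays shifted, calls leaned downward: 512 probe sets passed as lower and 198 as higher, against 118 and 71 in the reported fit. Scd1 alone of the 9 passed with 1 in place of 16 as the added value (0.0265, 1.13%). None of the 9 passed as deposited, without the litter block, with 64 added or with averaged probe sets, where the adjusted p of Scd1 was 0.0804, 0.0583, 0.0744 and 0.0859. Scd1, Fads2 and Scd2 were below 0 under all 10 alternatives. Each was already below 0 in every litter, so leaving out a litter or the block could hardly turn a sign.

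**Figure D3:**
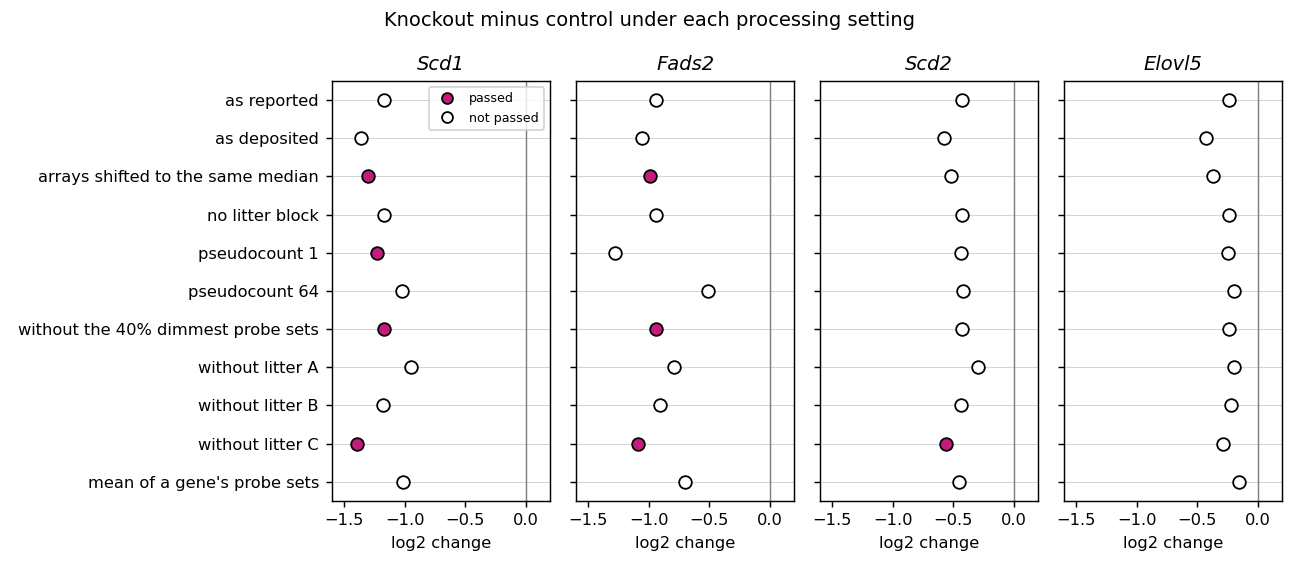
Log2 change, knockout minus control, of Scd1, Fads2, Scd2 and Elovl5, the genes at an unadjusted p under 0.05, chosen after their values were seen (brightest probe set, except in the row with the mean of a gene's probe sets) under the reported setting and 10 alternatives. Filled points passed an adjusted p of 0.05. Every point lies left of 0, as the brightest probe sets already did in every litter. All 3 of Scd1, Fads2 and Scd2 are filled in the row without litter C.

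Other genes of fatty acid handling were examined in 8 lists with 99 genes, of which 93 were measured. The adjustment was again over all 45037 probe sets. Of the 93 genes 1 passed as lower and 0 as higher in the knockout, where 0.401% and 0.214% of all genes did. Without litter C 15 passed as lower and 6 as higher, where 4.34% of all genes passed as lower and 4.07% as higher. The gene that passed with all litters was Insig2, which holds the SREBP cleavage complex in the endoplasmic reticulum. It read 241.4, 276.2 and 284.5 in the knockout pools of litters A, B and C, against 434.3, 429.7 and 480.6 in the controls, with no overlap. It fell by 0.71 on the log2 scale (± 0.09, limma adjusted p = 0.0448). The call was lost with arrays shifted to the same median (adjusted p = 0.0503), with 64 as the added value (0.0628), with the mean of its probe sets (0.0739), as deposited (0.268) and without litter A (0.325) or litter B (0.44).

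The SREBP genes themselves did not pass. Srebf1, which encodes the main activator of desaturase and fatty acid synthesis genes, averaged 295.6 ± 5.81 in knockouts and 420.7 ± 64.9 in controls (log2 change -0.48 ± 0.11, limma adjusted p = 0.126). Srebf2, which encodes the activator of cholesterol genes, averaged 163.3 ± 15.9 in knockouts and 225.1 ± 9.43 in controls (-0.43 ± 0.10, adjusted p = 0.147). In both genes every knockout array lay below every control array, as in 10.8% of all genes. The 14 measured regulators had a median of -0.05, with 6 above and 8 below 0. At an unadjusted p under 0.05 3 were lower and 3 higher, where 9.45% of all genes were lower and 8.66% higher.

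Among 13 measured carriers and other acyl-CoA synthetases the median was -0.09 and 0 passed. The acyl-CoA-binding protein Dbi averaged 1060.0 ± 113.7 in knockouts and 2153.5 ± 497.5 in controls (log2 change -0.99 ± 0.18, limma adjusted p = 0.0831). The fatty acid transport protein Slc27a3 averaged 3.02 ± 1.14 in knockouts, a very dim level, and 26.4 ± 12.3 in controls (-1.12 ± 0.19, adjusted p = 0.0772). The size of that difference follows the added value: it was -2.71 with 1, where it passed (adjusted p = 0.0409), and -0.42 with 64 (0.108). In Dbi and Slc27a3 every knockout array lay below every control array, as in 10.8% of all genes. Among 16 other acyltransferases the median was 0.06 and 0 passed; Agpat5, which makes phosphatidic acid from lysophosphatidic acid, had 0.54 ± 0.13 (adjusted p = 0.144) and its family member Agpat4 -0.42 ± 0.13 (0.227).

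Desaturases draw electrons from cytochrome b5 and its reductase. Of 9 measured genes in that list (median -0.07) 0 passed, with Cyb5a at -0.34 ± 0.09 (limma adjusted p = 0.182) and Cyb5r3 at -0.45 ± 0.12 (0.178). The reductase Cyb5r1, named after its values were seen, lay the other way without overlap, at 413.8 ± 39.5 in knockouts and 314.2 ± 48.5 in controls (0.39 ± 0.14, adjusted p = 0.275). Of 12 genes of the elongation cycle (median -0.12) 0 passed, with 4 lower and 1 higher at an unadjusted p under 0.05. Of all genes, 9.45% were lower and 8.66% higher at that threshold. Tecr, the enoyl reductase that closes the cycle, had -0.62 ± 0.14 (adjusted p = 0.126) and the dehydratase Hacd2 -0.40 ± 0.09 (0.122). In both, every knockout array lay below every control array, as in 10.8% of all genes. The 8 fatty acid synthesis genes had a median of -0.16 and 0 passed, with 3 lower and 1 higher at an unadjusted p under 0.05. Among them were the NADPH-forming malic enzyme Me1 at -0.36 ± 0.09 (0.146) and the citrate lyase Acly at -0.27 ± 0.09 (0.263).

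Of 15 measured genes of acyl-CoA oxidation (median -0.06) 0 passed. Ech1, a dienoyl-CoA isomerase used for unsaturated chains, had -0.45 ± 0.09 (limma adjusted p = 0.108), and the thiolase Acaa1b, under 16 on all 6 arrays, had 0.30 ± 0.13 (0.358). The 6 ether phospholipid genes had a median of 0.02 and 0 passed. In that list the peroxisomal import receptor Pex7 had -0.16 ± 0.10 (0.542), and Tmem189, the plasmanylethanolamine desaturase, -0.20 ± 0.11 (0.483) on its brightest probe set and 0.20 with the mean of its probe sets.

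**Figure D4:**
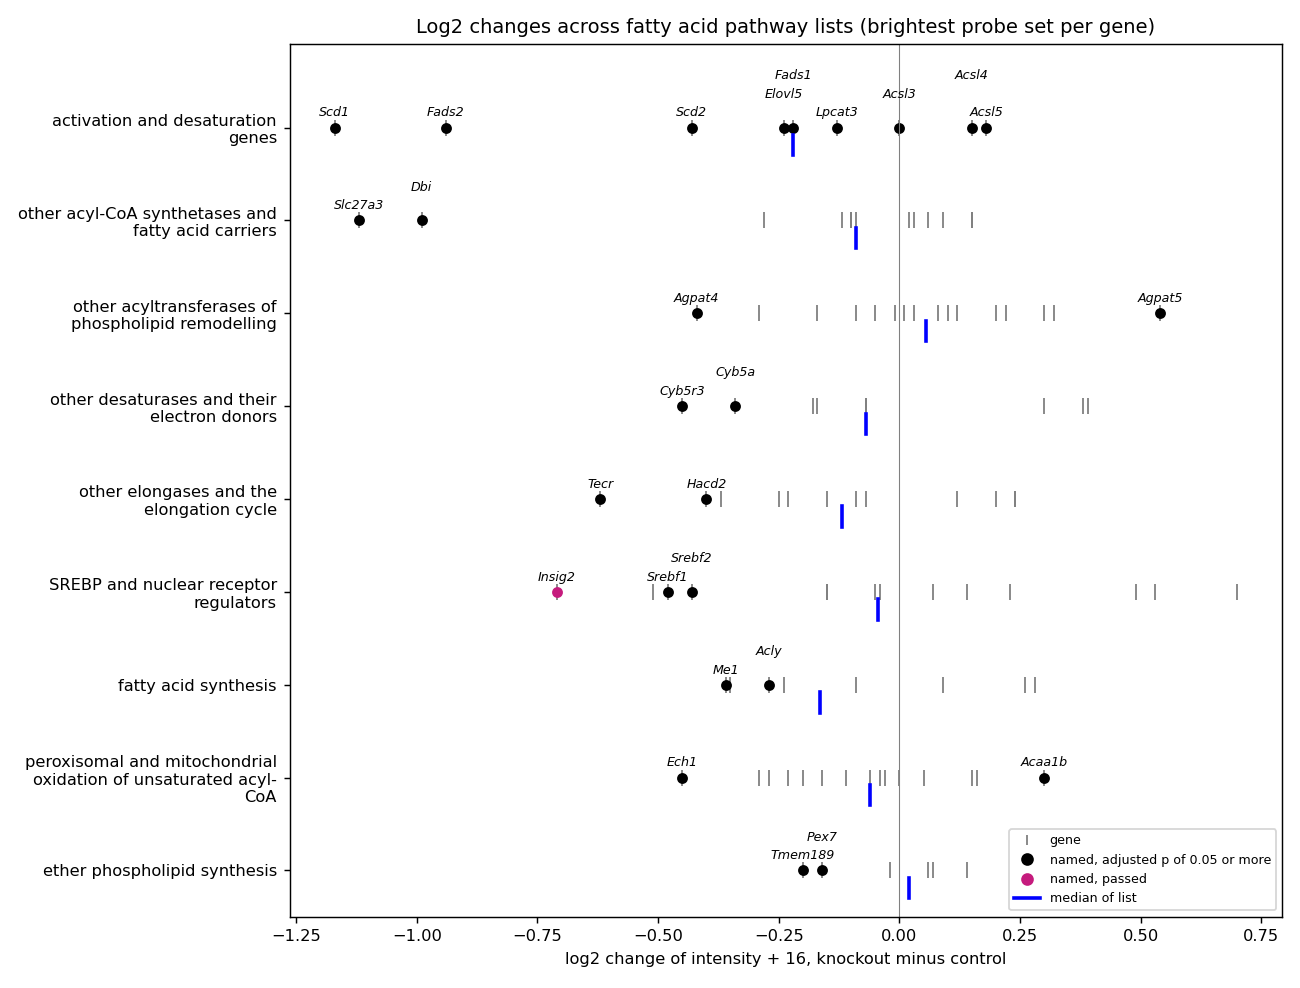
Log2 change, knockout minus control, of each measured gene (brightest probe set) in 9 lists, one row per list. Grey ticks are genes, black dots are named genes that did not pass, the coloured dot is Insig2, which passed, and blue bars are list medians. Scd1, Fads2, Slc27a3 and Dbi lie farthest to the left.

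Of the 6 keratinocyte markers 1 passed, as lower in knockouts, and 3 were lower at an unadjusted p under 0.05 (median log2 change -0.23). Of all genes 0.401% passed as lower and 9.45% were lower at an unadjusted p under 0.05. Krt5 and Krt14, the basal keratins, averaged 6741.0 ± 130.6 and 6679.9 ± 67.3 in knockouts and 6873.0 ± 243.0 and 6521.6 ± 267.8 in controls. Krt10, a suprabasal keratin, fell by 1.42 (± 0.08, limma adjusted p = 0.00922). Krt1, its suprabasal partner, averaged 329.3 ± 115.2 in knockouts and 855.4 ± 476.9 in controls (log2 change -1.21 ± 0.22, adjusted p = 0.0836). Trp63, the transcription factor of basal cells, averaged 821.9 ± 80.4 in knockouts and 1117.2 ± 133.2 in controls, with no overlap (-0.43 ± 0.08, adjusted p = 0.0816). The desmosomal Dsp averaged 4835.7 ± 202.0 in knockouts and 4950.7 ± 325.5 in controls. The part of keratinocyte differentiation in the desaturase values was not tested. The markers of sebocytes, cells rich in Scd1, summed to 73.5 to 85.8 in knockouts and 72.2 to 308.4 in controls over the 5 of 7 that were measured, and Mc5r, Elovl3 and Far2 were under 16 on all arrays. The highest sum came from Cidea, at 253.3 in the control of litter C and 27.7 to 38.3 on the other arrays.

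Of the markers of other cell types, melanocyte markers alone had genes that passed. The 6 melanocyte markers summed to 5975.6 to 6570.5 in knockouts and 4216.4 to 4405.0 in controls. Of these 6 genes 2 passed as higher, where 0.214% of all genes did: Tyrp1 (log2 change 0.69, limma adjusted p = 0.038) and Mlana (1.11, 0.0429). The 7 fibroblast markers summed to 339.9 to 540.5 in knockouts and 150.0 to 477.2 in controls, with the highest control in litter C, and 0 passed. At an unadjusted p under 0.05, where 8.66% of all genes were higher, 4 of the 7 were higher in knockouts: Col1a1 (1.12), Col1a2 (0.83), Pdgfra (0.71) and Twist2 (0.66). The list's median log2 change was 0.66. Adipocyte markers (5 of 7 measured) summed to at most 38.7 on any array, with Adipoq, Cidec and Lep under 16 throughout. Leukocyte markers summed to 101.1 to 120.4 in knockouts and 85.3 to 105.2 in controls, and Ptprc, Cd3e and Cd207 were under 16 on all arrays. Endothelial markers summed to 24.4 to 37.3 in knockouts and 23.1 to 34.8 in controls. The part of these cells in the desaturase values was not tested.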

How the data were processed

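The deposited table gives 1 linear intensity per probe set and array. Background correction, probe summary and scaling are not given in the sources used here. Trimmed mean intensities (2% off each end) ran from 72.8 to 114.3, highest in the control of litter C. Per the labels, total RNA was extracted with Trizol and labelled with biotin by in vitro transcription, and the arrays are biological replicates.

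Quantile normalization was applied to the 45037 probe sets left after 64 control probe sets, and log2(intensity + 16) was tested in limma 3.58.1 (R 4.3.3; lmFit, eBayes with trend) with litter as a block. Residuals of same-litter arrays correlated at 0.175, 0.0474 and 0.207; the labels give the pairing. Symbols came from the 2016 platform annotation (34945 probe sets with 1 gene, 932 with several, 9160 not listed), updated through RefSeq (GRCm38.p6). A gene's probe set with the highest mean was used. Beyond the genes chosen by name, each list's genes that passed and the next 2 by unadjusted p were named, with Gpx4. Markers, sex-linked genes, and Fads3 and Scd3 as neighbours, and Cyb5r1 are also given. The steps were tested on simulated data whose planted changes were larger than those of the genes chosen by name. Smaller planted changes were not simulated. Genes, lists and the quantile setting were chosen with earlier results of these data known. Alternatives were other scalings, no litter block, other pseudocounts, a filter on dim probe sets, mean probe sets and each litter left out.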

Additional observations from a re-analysis of the deposited data

How the results depend on the processing

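The number of probe sets that passed was 189, and it changed with the setting. It was 35 as deposited (8.57% higher, against 37.6% at first), 710 with arrays shifted to the same median, 601 with a pseudocount of 1, 59 with 64, 1130 without the dimmest 40% and 135 with no litter block. With a litter left out and the rest renormalized it lay between 0 (limma without litter B, where 3695 had an unadjusted p under 0.05) and 2666 (litter C left out). Of the 9 genes 2 passed with arrays shifted, 1 with a pseudocount of 1, 2 without the dimmest probe sets and 0 to 3 with a litter left out. Of the 93 wider genes 2 passed with arrays shifted, 3 with a pseudocount of 1 and 4 without the dimmest probe sets, all as lower. Of all genes 1.65%, 1.13% and 2.95% passed as lower in these settings. Of the wider genes 0 passed as deposited, with 64 or with mean probe sets, and 0 to 21 with a litter left out (the 21 without litter C were 15 lower and 6 higher, where 4.34% of all genes passed as lower and 4.07% as higher). The median of the 9 genes was -0.404 as deposited, -0.345 with arrays shifted and -0.129 with mean probe sets. As deposited the median over all probe sets was -0.066. Signs turned for Acsl3 (-0.20 as deposited, -0.14 shifted, -0.09 to 0.17 with a litter left out), Acsl4 (-0.05 as deposited) and Tmem189 (0.20 with mean probe sets). For the 9 genes, 77 of the other values kept both their sign and their side of the threshold, 8 newly passed and 5 turned sign without passing. The paired fit, with the litter as a replicate block, is the reported one, and without it no call of the 9 genes changed. The causes were not tested. Leaving out 1 array of a pair gives the paired fit without that litter. Levels under 16, as for Fads2's dimmest probe set, limit what can be read from folds.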
